A study of Mus musculus with 20 samples.

Results

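Albumin and 9 other abundant proteins that hepatocytes secrete into plasma were followed at the mRNA level in mouse liver. The 10 genes were picked by name from the 46078 genes of the table of counts, as *Alb* and genes of secreted carrier proteins, fetuins, serpins and an inter-alpha-trypsin inhibitor chain: *Alb*, *Ttr*, *Ahsg*, *Fetub*, *Apoh*, *Gc*, *Rbp4*, *Serpina3k*, *Serpina6* and *Itih4*. All 10 passed the filter on low counts, among 14759 genes that did. The livers came from 20 male mice, at least 9 weeks old, on a mixed 129/C57BL/6 background, in 6 groups of genotype and diet. *Cse* (*Cth* in the table) encodes cystathionine gamma-lyase, the enzyme that releases cysteine from cystathionine, so that mice without it rely on cysteine from food. Of the *Cse*+/- mice 2 ate the control diet, 4 a diet without cysteine (no-Cys) and 3 a diet without tryptophan (no-Trp). Of the *Cse*-/- mice 4 ate the no-Cys diet, 3 the no-Trp diet and 4 the no-Trp diet with l-buthionine sulfoximine (BSO, an inhibitor of glutathione synthesis). A calorie-restricted control diet came first for all mice, calorie restriction went on with the control, no-Cys and no-Trp diets, and livers were taken 2 days after the change. In the test diets, variants of the amino acid diet 5CC7, the remaining amino acids made up for the missing one. The germline deletion affects every tissue, so that the liver was measured in an animal that lacked the enzyme throughout. The sample labels call the control genotype wild type and the study's list of mice calls it heterozygous.

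Hepatocytes make most plasma proteins. The mRNAs are translated on the endoplasmic reticulum, where the signal peptide is removed and disulfide bonds form between cysteines, and the proteins are then exported. Albumin is the main protein of plasma, which sets its oncotic pressure and carries fatty acids, bilirubin and drugs, and it is a classical marker of differentiated hepatocytes whose transcription depends on factors such as HNF1 and C/EBP.

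In these libraries *Alb* was the most abundant transcript and took 5.61% of all gene counts, averaged over the 6 groups. *Apoe* followed with 2.46%, *Cyp2e1* with 1.31% and mt-Co1 with 1.31%. *Ahsg* ranked 5 with 1.09%, *Serpina3k* ranked 9 with 0.796% and *Gc* ranked 13 with 0.569%. *Rbp4* and *Ttr* closed the first 20 at 0.502% and 0.496%. The remaining members ranked 33 (*Apoh*), 75 (*Itih4*), 169 (*Fetub*) and 330 (*Serpina6*). Per kilobase of exon, the scale on which levels of different genes can be set side by side, *Alb* stood at 24546 CPM (counts scaled to library size) per kb and was again first of 14705 genes. Among the other members *Ahsg* was at 4973, *Ttr* at 4257, *Serpina3k* at 3954, *Rbp4* at 3757 and *Gc* at 3121. *Apoh* stood at 1905, *Itih4* at 481, *Fetub* at 366 and *Serpina6* at 230 CPM per kb.

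The promoters of 3 genes are shown because the genes took different courses in the comparisons that follow: *Alb* and *Gc*, which lie on the same chromosome and fell together, and *Ahsg*, which rose. Sequences are from RefSeq on GRCm38.p6, which held promoters for 7 of the 10 genes (not *Ttr*, *Serpina3k* and *Serpina6*), and run from 250 bases before to 50 bases after a transcription start. The windows were searched on both strands for 4 short motifs. Capitals mark 2 of them, the HNF1 half-site GTTAAT, present in 7.1% of 32851 promoters, and the CCAAT box CCAAT, present in 37.4%. On the other strand they read ATTAAC and ATTGG. The TATA box TATAAA (13.6%) and the C/EBP-ATF composite TGATGNAA (3.97%) were searched as well and are not marked. The marked motifs do not overlap one another in these windows. The *Alb* window is chr5:90460620-90460919 on the plus strand, the *Gc* window chr5:89457849-89458148 on the minus strand and the *Ahsg* window chr16:22891765-22892064 on the plus strand.
Alb: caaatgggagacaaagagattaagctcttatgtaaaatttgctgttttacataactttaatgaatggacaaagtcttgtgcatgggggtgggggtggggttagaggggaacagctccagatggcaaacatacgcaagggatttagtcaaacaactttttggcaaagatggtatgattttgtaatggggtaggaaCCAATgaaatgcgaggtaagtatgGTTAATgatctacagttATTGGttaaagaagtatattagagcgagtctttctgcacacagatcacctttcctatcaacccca
Gc: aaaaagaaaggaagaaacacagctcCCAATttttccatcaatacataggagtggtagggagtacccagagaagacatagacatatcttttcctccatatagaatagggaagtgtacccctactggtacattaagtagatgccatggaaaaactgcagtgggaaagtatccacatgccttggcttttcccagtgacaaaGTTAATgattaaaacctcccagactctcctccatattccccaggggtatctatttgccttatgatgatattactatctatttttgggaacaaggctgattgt
Ahsg: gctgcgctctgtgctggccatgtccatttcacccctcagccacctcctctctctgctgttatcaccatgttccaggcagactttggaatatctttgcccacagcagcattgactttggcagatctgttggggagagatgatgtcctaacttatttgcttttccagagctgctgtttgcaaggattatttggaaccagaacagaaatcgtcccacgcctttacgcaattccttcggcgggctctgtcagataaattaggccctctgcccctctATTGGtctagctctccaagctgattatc
The half-site occurred in *Alb* at -32 and in *Gc* at -52 from the RefSeq start and in none of the other windows of the 7 genes, among them that of *Apoh*, which also fell and held none of the 4 motifs. The CCAAT box occurred at -56 and, on the other strand, at -15 in *Alb*, at -225 in *Gc* and, on the other strand, at +23 in *Ahsg*. Of the 3 windows shown, only that of *Gc* held the composite, on the other strand at -218, and none held the TATA box. These are matches of letters and do not show binding. *Alb* (chr5:90460897-90476602) and *Gc* (chr5:89417522-89457898) are separated by 1002998 bases with 5 protein-coding genes between them. *Ahsg* (chr16:22891277-22899449) and *Fetub* (chr16:22918334-22939778), the 2 fetuins, are direct neighbours 18884 bases apart. These coordinates are those of GENCODE genes on GRCm38, whose starts need not be those of RefSeq.

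Read counts on genes ranged from 11785740 to 57986121 per library, with a median of 15252745. Even the least abundant member, *Serpina6*, averaged 393 CPM, so that counting error was small beside the spread between mice. *Cth* was between 88.4 and 332 CPM in the 9 *Cse*+/- livers and between 6.37 and 14.4 CPM in the 11 *Cse*-/- livers, so that the genotypes did not overlap. Of 12 hepatocyte markers outside the 10 genes none was without counts, and their summed level was between 33852 and 50268 CPM in all livers. Of the 8 pancreas genes checked, the sum was at most 2.05 CPM. In bulk tissue fewer hepatocytes and less of an mRNA per hepatocyte cannot be told apart. Within the *Cse*-/- no-Cys group 1 liver, that of mouse av08, stood apart from the other 3 in several of the genes, and the main results on the 10 genes in that group are given with and without it. Mouse av08 was singled out by these same values. Calls and adjusted p values without it therefore describe how far a result depends on 1 liver and are no independent test.

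The 10 genes together took less of the liver's mRNA counts in *Cse*-/- mice than in *Cse*+/- mice, and least in *Cse*-/- mice without cysteine. Their summed share was 11.90% and 11.67% in the 2 *Cse*+/- control livers. It was 12.27%, 10.25%, 11.61% and 11.35% in *Cse*+/- no-Cys livers, and 9.54%, 10.20% and 9.98% in *Cse*+/- no-Trp livers. It was 8.52%, 9.01% and 8.65% in *Cse*-/- no-Trp livers and 9.50%, 8.56%, 8.91% and 8.44% with BSO. The *Cse*-/- no-Cys livers were at 6.55%, 6.96%, 6.63% and, in mouse av08, 8.88%. The no-Cys groups of the 2 genotypes did not overlap, and av08 lay within the range of the *Cse*-/- no-Trp livers. Group means were 11.37% ± 0.839 (SD, n = 4) in *Cse*+/- no-Cys and 7.26% ± 1.10 (SD, n = 4) in *Cse*-/- no-Cys livers, or 6.72% ± 0.220 (n = 3) without av08. The share of counts on mitochondrial genes differed between these groups as well. It was 5.17% to 5.84% in *Cse*+/- no-Cys and 3.62% to 3.99% in *Cse*-/- no-Cys livers, which did not overlap, 5.25% to 5.43% in *Cse*+/- control livers and 3.45% to 4.81% over the other 10 livers. Counted without mitochondrial genes the summed share of the 10 genes was 12.03% in *Cse*+/- no-Cys and 7.54% in *Cse*-/- no-Cys livers.

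Between the genotypes on the no-Cys diet nearly all of the difference in the summed share was albumin. Between the no-Cys groups the mean share fell by 4.11 percentage points, in which *Alb* fell by 4.02 points and the other 9 genes together fell by 0.0926 points. Without av08 the sum fell by 4.65 points, *Alb* fell by 4.53 points and the other 9 genes fell by 0.124 points. On the no-Trp diet the sum fell by 1.18 points between the genotypes, of which *Alb* fell by 0.716 points and the other 9 genes fell by 0.467 points. The 9 genes held between 3.64% and 4.54% of counts in each of the 20 livers. Among them, on the no-Cys diet, *Ttr* fell by 0.266 points and *Serpina3k* fell by 0.263 points, while *Ahsg* gained 0.467 points and *Rbp4* gained 0.152 points. *Alb* made up 62.7% to 67.5% of the counts of the 10 genes in *Cse*+/- no-Cys livers and 42.8% to 56.3% in *Cse*-/- no-Cys livers, the highest being av08 and the next 45.1%. A share falls or rises also when other genes change, so that the single genes are given below as CPM scaled by trimmed mean of M values (TMM).

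**Figure D1:**
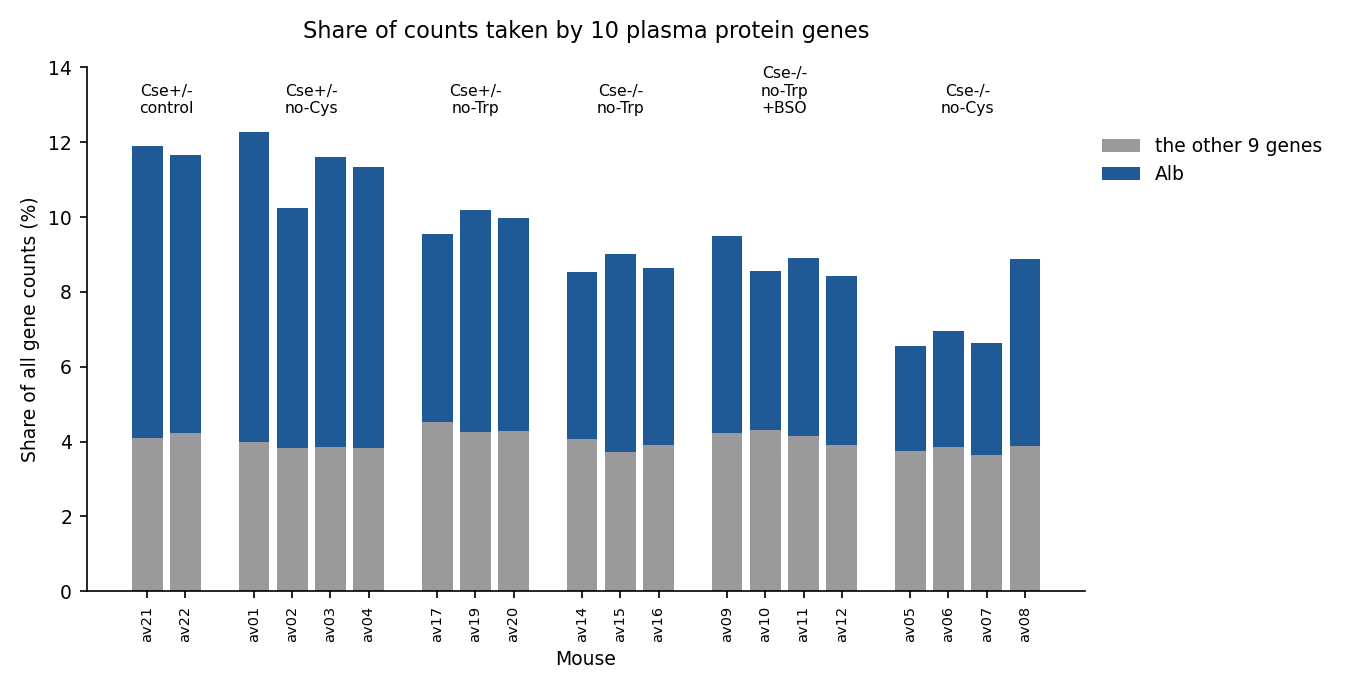
Share of all gene counts (%, vertical axis) taken by *Alb* (blue) and by the other 9 genes (grey) in each of the 20 livers, grouped by genotype and diet. The grey part stays between 3.64% and 4.54% in every liver, while the blue part is smallest in *Cse*-/- no-Cys mice av05, av06 and av07.

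The comparison of the genotypes on the no-Cys diet asks how liver mRNA differs between mice that can and cannot make cysteine when none is eaten. *Alb*, *Ttr*, *Serpina3k*, *Apoh* and *Gc* were lower and *Ahsg* was higher in *Cse*-/- livers. These 6 of 10 genes passed an adjusted p of 0.05 (edgeR quasi-likelihood test, Benjamini-Hochberg over all 14759 genes). Of all genes tested 23.8% passed, 11.6% as higher and 12.2% as lower, and of the 345 genes at least as abundant as *Serpina6* 47.2% passed. The count of 6 is therefore not far above the share in that set. The 345 genes include the members and are not matched to the abundance of each member. That abundance limit was chosen after the values were seen. The median log2 fold change of the 10 genes was -0.44, against -0.009 over all genes. The groups did not overlap for 4 members, *Alb*, *Ttr*, *Ahsg* and *Serpina3k*, and for 23.2% of all genes.

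*Alb* was at 87978, 64175, 80887 and 80221 CPM in *Cse*+/- no-Cys livers. It was at 25507, 28858, 26833 and, in av08, 49495 CPM in *Cse*-/- no-Cys livers. Every *Cse*-/- liver lay below every *Cse*+/- liver, and av08 lay nearer to the lowest *Cse*+/- liver than to the other 3 of its group. The log2 fold change was -1.26 (SE 0.173, 95% interval -1.62 to -0.90, adjusted p = 4.79e-05), or 2.40-fold lower. Without av08 it was -1.53 (SE 0.121, adjusted p = 1.03e-07), or 2.89-fold lower.

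*Ttr* encodes transthyretin, the plasma carrier of thyroxine that also holds retinol-binding protein. It was at 4937, 5523, 5931 and 7826 CPM in *Cse*+/- no-Cys livers and at 2488, 2808, 2660 and 3807 CPM in *Cse*-/- no-Cys livers, the last being av08. The groups did not overlap, and av08 was the highest of its group. The log2 fold change was -1.04 (SE 0.152, adjusted p = 8.81e-05), and -1.19 (adjusted p = 1.07e-05) without av08. *Rbp4*, which encodes the retinol-binding protein that circulates bound to transthyretin, did not follow *Ttr*. It was at 4690, 4035, 4039 and 4698 CPM in *Cse*+/- and at 5273, 5845, 5833 and, in av08, 4179 CPM in *Cse*-/- no-Cys livers. The 3 other *Cse*-/- livers were above every *Cse*+/- liver, and av08 was within the *Cse*+/- range. The log2 fold change of *Rbp4* was 0.28 (SE 0.116, adjusted p = 0.0913), which did not pass, and 0.37 (adjusted p = 0.0135) without av08.

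The carriers *Gc* and *Apoh* had smaller differences. *Gc* encodes the vitamin D-binding protein, a relative of albumin that also binds actin. It was at 6768, 5890, 6384 and 6259 CPM in *Cse*+/- and at 4254, 4825, 4316 and, in av08, 5983 CPM in *Cse*-/- no-Cys livers. Only av08 reached the *Cse*+/- range, and the log2 fold change was -0.38 (SE 0.0979, adjusted p = 0.00753), or -0.50 (adjusted p = 1.53e-04) without it. In a fit of only these 2 groups it was -0.39 and did not pass (adjusted p = 0.0670). *Apoh* encodes beta-2-glycoprotein I, which binds anionic phospholipids. Its levels were 3295, 2703, 2781 and 3242 CPM in *Cse*+/- and 1908, 2246, 2049 and, in av08, 2751 CPM in *Cse*-/- no-Cys livers. Again av08 alone lay inside the *Cse*+/- range, and the log2 fold change was -0.42 (SE 0.107, adjusted p = 0.00705), or -0.54 (adjusted p = 4.58e-04) without it.

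The 2 fetuins differed from each other. *Ahsg* encodes fetuin-A, a carrier of calcium phosphate that prevents its precipitation. It was at 10368, 8197, 9548 and 9145 CPM in *Cse*+/- and at 13501, 13323, 11885 and, in av08, 11849 CPM in *Cse*-/- no-Cys livers. All 4 *Cse*-/- livers were above all 4 *Cse*+/- livers, and av08 was beside av07. The log2 fold change was 0.44 (SE 0.104, adjusted p = 0.00454), or 1.36-fold higher, and 0.47 (adjusted p = 0.00323) without av08. *Fetub*, its neighbour in the genome, encodes fetuin-B, an inhibitor of the protease ovastacin. It ranged from 645 to 835 CPM in *Cse*+/- and from 518 to 729 CPM in *Cse*-/- no-Cys livers, with a log2 fold change of -0.18 (95% interval -0.45 to 0.08, adjusted p = 0.318), or -0.26 (adjusted p = 0.171) without av08.

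Of the serpins and the protease inhibitor chain, *Serpina3k* passed the test. It encodes contrapsin, a serine protease inhibitor of mouse plasma, and 10.3% of the 61-base words of its transcripts also occur in other genes, mainly *Serpina3m*, so that some reads may be assigned uncertainly. It was at 8652, 9264, 8191 and 6749 CPM in *Cse*+/- and at 4927, 4638, 3975 and, in av08, 6184 CPM in *Cse*-/- no-Cys livers. The groups did not overlap, and the log2 fold change was -0.74 (SE 0.148, adjusted p = 0.00136), or -0.86 (adjusted p = 2.82e-04) without av08. *Serpina6* encodes the corticosteroid-binding globulin. It spread from 186 to 601 CPM among *Cse*+/- no-Cys livers alone, around the 225 to 323 CPM of *Cse*-/- no-Cys livers, and its log2 fold change of -0.51 (95% interval -1.04 to 0.03, adjusted p = 0.158) did not pass, nor did that of -0.50 (adjusted p = 0.218) without av08. Leaving out *Cse*+/- mouse av01, the lowest of its group, gave -0.75 (adjusted p = 0.0157).

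*Itih4*, a heavy chain of the inter-alpha-trypsin inhibitor family that belongs to the acute phase proteins, depended most on av08. It was at 2573, 1595, 2290 and 1544 CPM in *Cse*+/- and at 1046, 1146, 1038 and, in av08, 2609 CPM in *Cse*-/- no-Cys livers. The 3 other *Cse*-/- livers lay below every *Cse*+/- liver and av08 lay above them all. With all 4 livers the log2 fold change was -0.45 (SE 0.250, adjusted p = 0.198), and without av08 it was -0.89 (SE 0.183, adjusted p = 0.00159). Without av08 8 of 10 members passed, 2 as higher and 6 as lower, beside 23.7% of all genes.

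**Figure D2:**
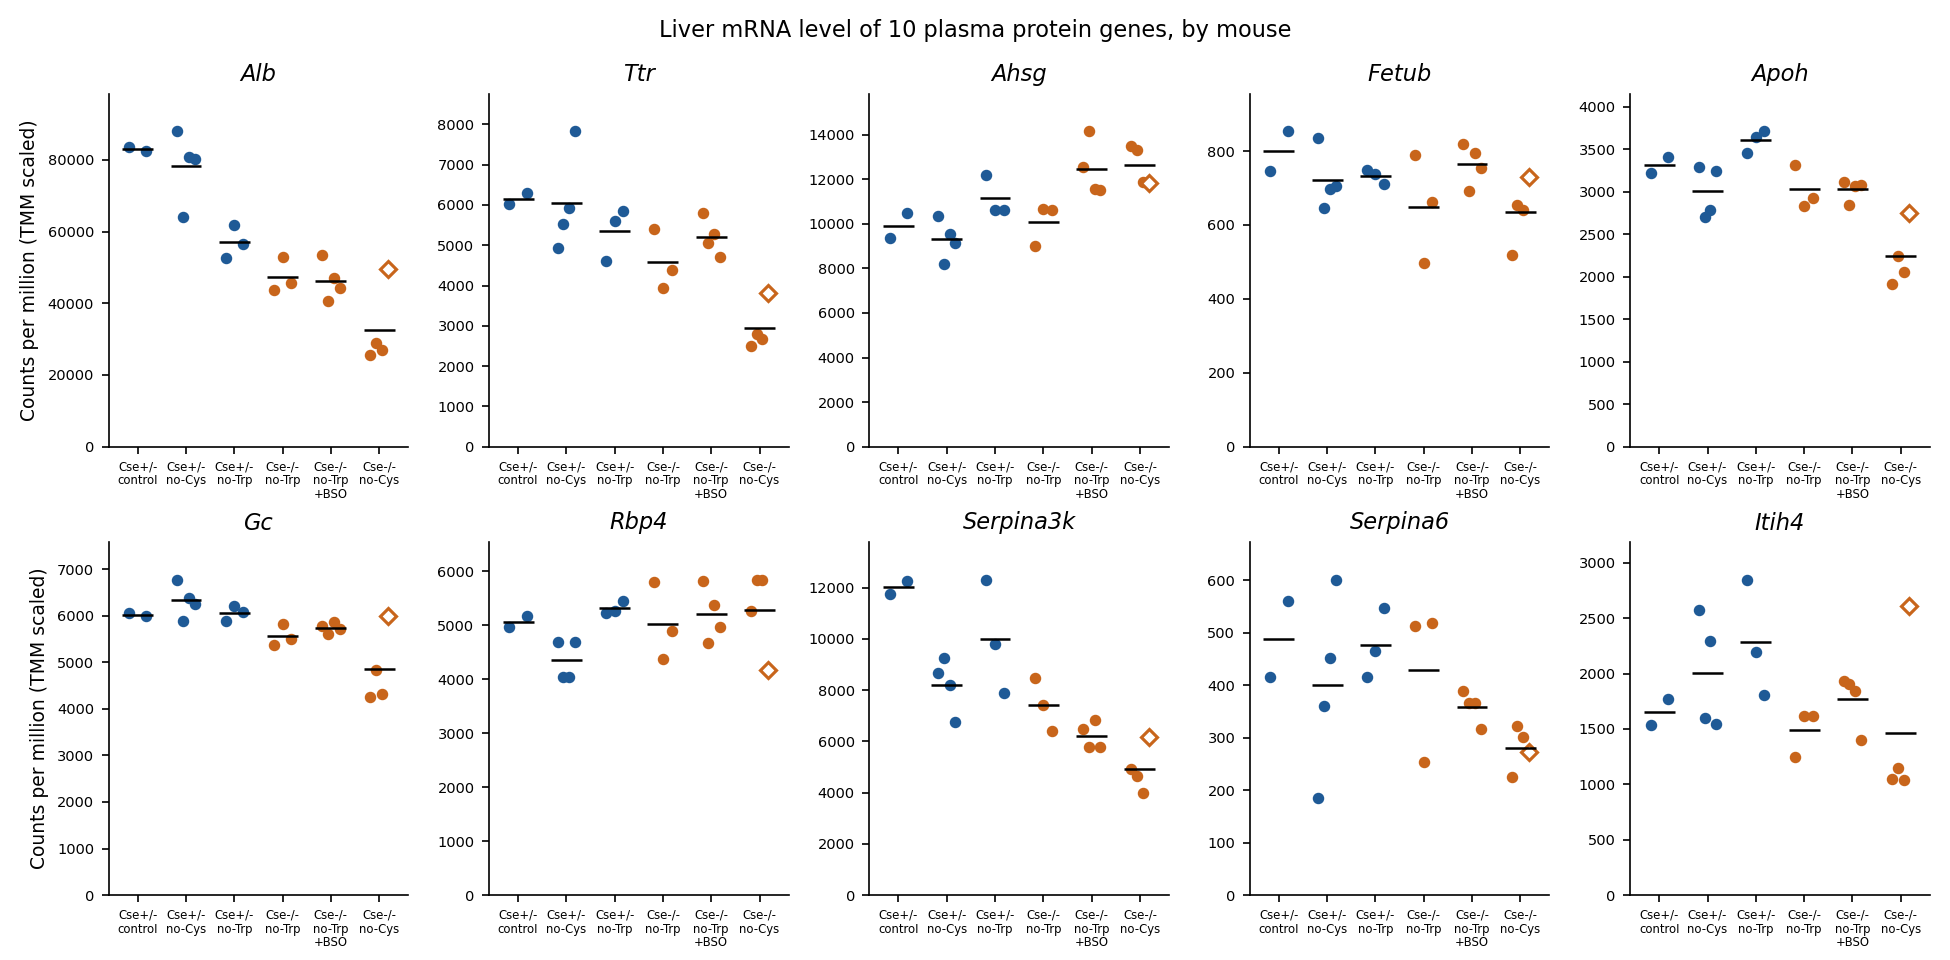
Level of each gene in CPM (vertical axis, from 0) in each liver, for *Cse*+/- mice (blue) and *Cse*-/- mice (orange) on each diet, with the group mean as a line and mouse av08 as an open diamond. *Alb*, *Ttr*, *Serpina3k*, *Apoh* and *Gc* are lowest in the *Cse*-/- no-Cys group, where *Ahsg* is highest.

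**Figure D3:**
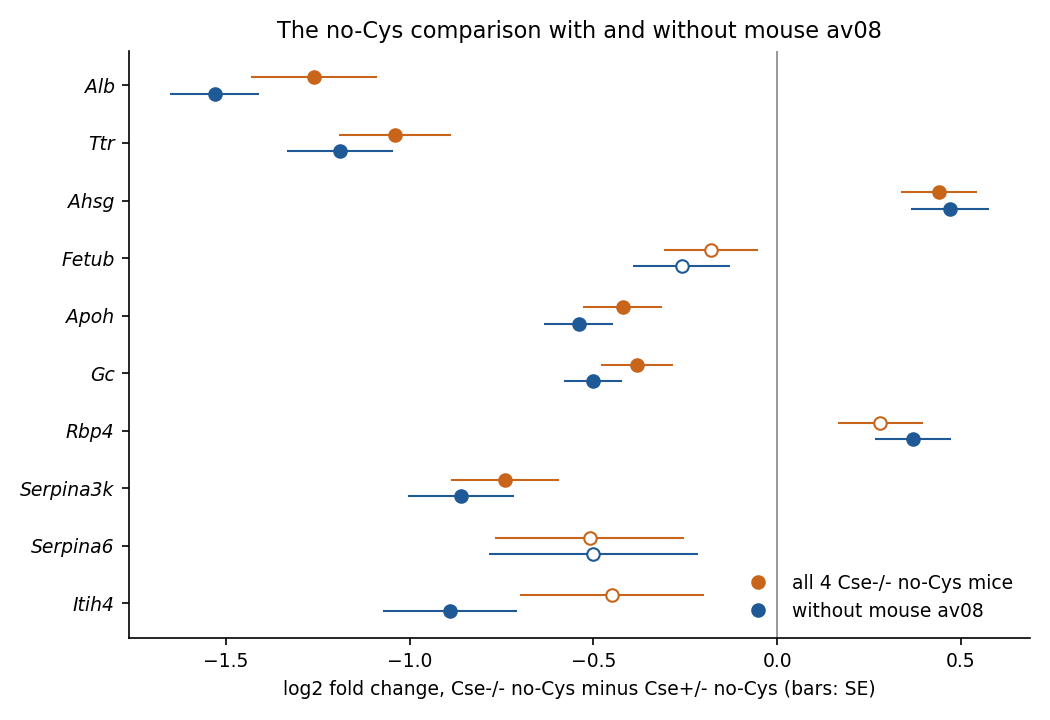
Log2 fold change (horizontal axis, bars are SE) of each gene between the genotypes (*Cse*-/- minus *Cse*+/-) without dietary cysteine, with all 4 *Cse*-/- livers (orange) and without av08 (blue); filled points passed an adjusted p of 0.05. *Rbp4* and *Itih4* pass only without av08, at 0.37 and -0.89.

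The same genotypes on the no-Trp diet serve as the comparison for a lack of an essential amino acid other than cysteine. None of the 10 genes passed the edgeR test, beside 2.64% of all genes, and DESeq2 also called none. At an unadjusted p of 0.05 there were 2, *Serpina3k* (log2 fold change -0.43, adjusted p = 0.183) and *Itih4* (-0.61, adjusted p = 0.266). All 10 estimates were negative, from -0.61 to -0.08, with a median of -0.20, against 0.002 over all genes. *Alb* was at 52627, 61870 and 56543 CPM in *Cse*+/- no-Trp livers and at 43715, 52928 and 45737 CPM in *Cse*-/- no-Trp livers. The groups overlapped by 1 liver, and the log2 fold change was -0.26 (95% interval -0.67 to 0.15, adjusted p = 0.504). *Ahsg* was at 12195, 10616 and 10605 CPM in *Cse*+/- and at 9003, 10656 and 10635 CPM in *Cse*-/- no-Trp livers, a log2 fold change of -0.14 (adjusted p = 0.565).

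Whether the genotype difference depended on the amino acid left out was tested as an interaction. It passed for 3 members, beside 4.36% of all genes and 12.5% of the 345 abundant ones. The genotype difference on the no-Cys diet was more negative than on the no-Trp diet for *Alb* (log2 -0.997, SE 0.260, adjusted p = 0.0346) and *Ttr* (-0.81, SE 0.230, adjusted p = 0.0492), and more positive for *Ahsg* (0.58, SE 0.159, adjusted p = 0.0426). Without av08 they were -1.27 (adjusted p = 2.04e-04), -0.96 (adjusted p = 0.00685) and 0.61 (adjusted p = 0.0201). With it the calls were near the threshold. When each of the 14 livers was left out in turn, *Alb* lost its call 8 times (without av03, av05, av06, av07, av15, av16, av17 or av20), with estimates from -1.27 to -0.88 and adjusted p from 2.04e-04 to 0.0818. *Ttr* and *Ahsg* each lost it 11 times, without any 1 of these mice except av15, or without av02, av04, av14 or av19, with estimates from -0.96 to -0.66 and from 0.51 to 0.64 and adjusted p of up to 0.128 and 0.111. In a fit of the 4 groups alone none of the 3 passed (adjusted p of 0.0932, 0.115 and 0.0934). *Ttr* also lost its call with scaling by total counts (-0.72, adjusted p = 0.0546) and with thinning (-0.80, adjusted p = 0.0575). *Ahsg* lost it without the filter on low counts (0.59, adjusted p = 0.0503). *Gc* had an interaction of -0.26 (adjusted p = 0.350), and of -0.38 (adjusted p = 0.0470) without av08. The estimates of *Serpina3k* (-0.31, and -0.44 without av08) and *Apoh* (-0.17, and -0.29 without av08) did not pass, so that their lower level in *Cse*-/- mice was not shown to differ between the diets.

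**Figure D4:**
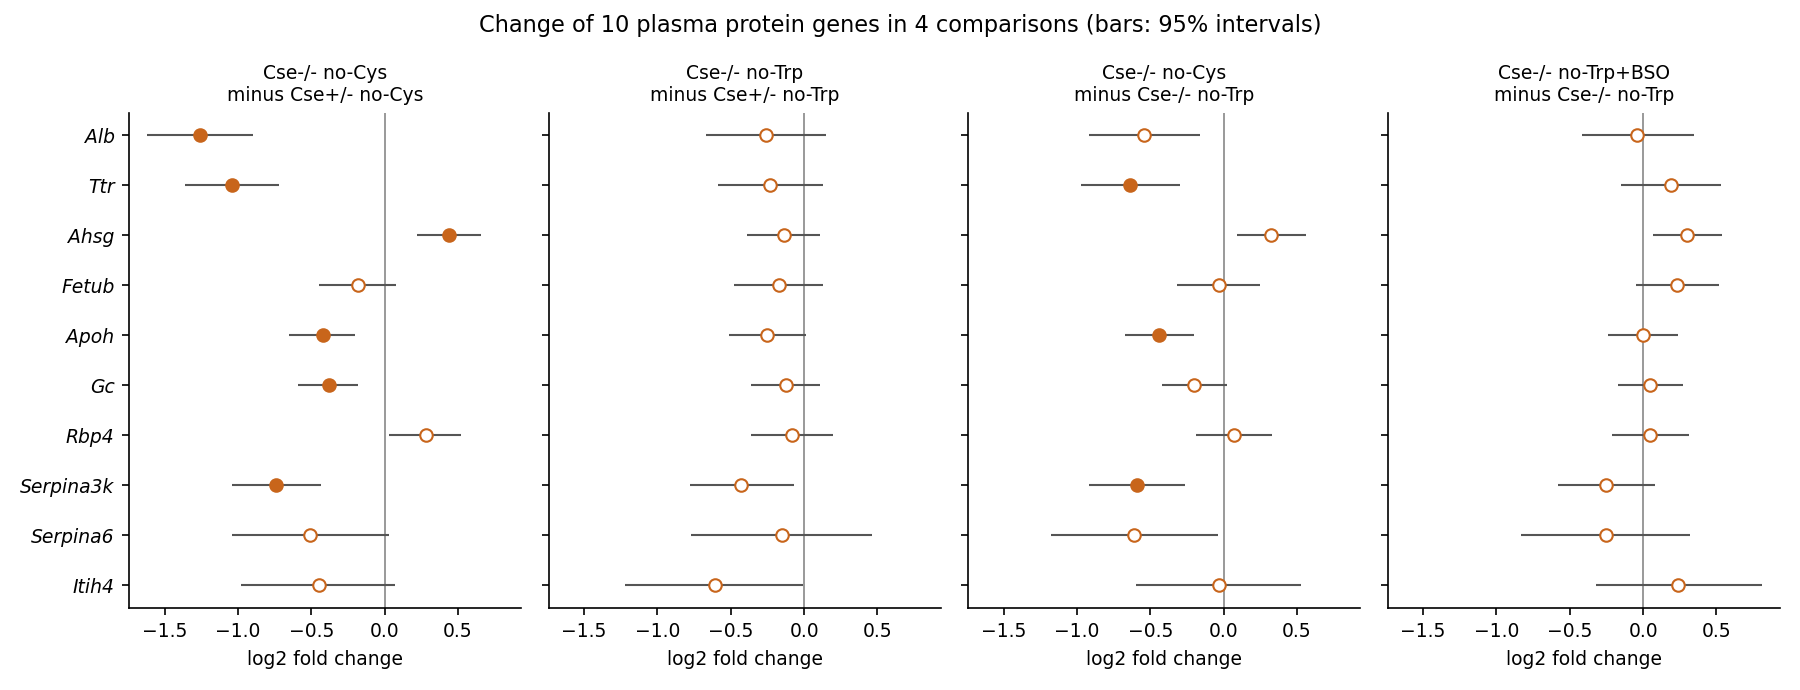
Log2 fold change (horizontal axis, bars are 95% intervals) of each gene in 4 comparisons named above the panels; filled points passed an adjusted p of 0.05. There are 6 filled points on the no-Cys diet, none on the no-Trp diet, 3 between the *Cse*-/- no-Cys and no-Trp groups and none for the addition of BSO.

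Among *Cse*-/- mice, lack of cysteine was set against lack of tryptophan. *Ttr*, *Apoh* and *Serpina3k* were lower on the no-Cys diet, 3 members beside 10.4% of all genes and 23.5% of the 345 abundant ones. *Ttr* was at 5396, 3942 and 4381 CPM in *Cse*-/- no-Trp livers, all above the highest *Cse*-/- no-Cys liver at 3807, with a log2 fold change of -0.64 (SE 0.161, adjusted p = 0.0174). *Apoh* was at 3317, 2835 and 2927 CPM, again above all no-Cys livers, with -0.44 (SE 0.115, adjusted p = 0.0213). *Serpina3k* was at 8472, 7406 and 6402 CPM, with -0.59 (SE 0.158, adjusted p = 0.0226). *Alb* had a log2 fold change of -0.54 (adjusted p = 0.0638 in edgeR). It passed with DESeq2 (adjusted p = 0.0249), without the filter on low counts (-0.55, adjusted p = 0.0257) and without av08 (-0.81, adjusted p = 3.78e-04). *Ahsg* had 0.32 (adjusted p = 0.0714 in edgeR). It passed with DESeq2 (0.33, adjusted p = 0.0212) and with scaling by total counts (0.40, adjusted p = 0.0217). Without av08 6 members passed, beside 12.6% of all genes, with *Gc* (-0.32, adjusted p = 0.0171) and *Ahsg* (0.35, adjusted p = 0.0477) added. *Ttr* was then at -0.79 (adjusted p = 0.00229), *Apoh* at -0.55 (adjusted p = 0.00154) and *Serpina3k* at -0.72 (adjusted p = 0.00447). The 3 calls rested on single mice as well: none of them passed without av05, av07 or av14, where their adjusted p values were at most 0.118, and *Serpina3k* did not pass without av06 (-0.57, adjusted p = 0.0587). In a fit of only these groups the 3 estimates were -0.64, -0.44 and -0.60 and none passed (adjusted p of 0.0800, 0.130 and 0.0925). *Serpina6* passed without av15 (-0.88, adjusted p = 0.0430).

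BSO was given with the no-Trp diet to lower glutathione while cysteine was present. Adding it changed no member past the threshold in edgeR or DESeq2, beside 0.793% of all genes. The 10 estimates lay between -0.25 and 0.30, and 1 had an unadjusted p under 0.05, *Ahsg*. *Ahsg* was at 12561, 14149, 11545 and 11515 CPM with BSO, above all 3 *Cse*-/- no-Trp livers (9003, 10656 and 10635), with a log2 fold change of 0.30 (95% interval 0.07 to 0.54, adjusted p = 0.228). The groups did not overlap for 1 member and for 12.6% of all genes. *Alb* was at 53394, 40559, 46935 and 44385 CPM with BSO, around the no-Trp livers, and its interval of -0.42 to 0.35 leaves room for a difference of that size. Against the no-Trp + BSO group, *Cse*-/- no-Cys livers were lower in *Ttr* (-0.82, SE 0.151, adjusted p = 0.00965) and *Apoh* (-0.43, SE 0.107, adjusted p = 0.0348), 2 members beside 2.75% of all genes and 10.7% of the 345 abundant ones. *Ttr* lost the call without av06 (-0.80, adjusted p = 0.0508). *Apoh* lost it without av05, av06, av07, av09, av11 or av12, with adjusted p of up to 0.138, and in a fit of only these groups (-0.43, adjusted p = 0.0595). Without av08 5 members passed, beside 6.97% of all genes, namely *Alb* (-0.78, adjusted p = 5.43e-04), *Ttr* (-0.97, adjusted p = 4.25e-04), *Apoh* (-0.55, adjusted p = 0.00167), *Gc* (-0.36, adjusted p = 0.00873) and *Itih4* (-0.72, adjusted p = 0.0219). With all 4 no-Cys livers *Alb* had a log2 fold change of -0.50 (adjusted p = 0.105). It passed with DESeq2 (-0.49, adjusted p = 0.0457) and without the filter on low counts (-0.52, adjusted p = 0.0423). These comparisons share the *Cse*-/- no-Cys livers.

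In *Cse*+/- mice, which can make cysteine, neither diet changed a member past the threshold. For the no-Cys diet against the control diet 2.18% of all genes passed and no member did in edgeR, with 1 member, *Serpina3k*, at an unadjusted p under 0.05. It was at 11766 and 12256 CPM in the 2 control livers, above all 4 no-Cys livers (at most 9264 CPM), with a log2 fold change of -0.55 (SE 0.177, adjusted p = 0.109). DESeq2 gave the same estimate an adjusted p of 0.0494, and over all alternatives the adjusted p lay between 0.0494 and 0.537. Levels in the no-Cys and control livers did not overlap for 2 members and for 25.6% of all genes. *Alb* was at 83709 and 82569 CPM in control livers, within the range of the *Cse*+/- no-Cys livers, with -0.09 (95% interval -0.52 to 0.35, adjusted p = 0.877). For the no-Trp diet against the control diet 0.0474% of all genes passed, and no member did with either tool. *Alb* had the only unadjusted p under 0.05, with a log2 fold change of -0.54 (SE 0.217, adjusted p = 0.448), and all 3 no-Trp livers were below both control livers. These groups did not overlap for 6 members and for 27.4% of all genes. With 2 control livers these comparisons can show only large differences.

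Ordered by group mean, *Alb* was at 83139 CPM in *Cse*+/- control (SD 806, n = 2), 78315 in *Cse*+/- no-Cys (SD 10059, n = 4), 57013 in *Cse*+/- no-Trp (SD 4639, n = 3), 47460 in *Cse*-/- no-Trp (SD 4842, n = 3), 46318 in *Cse*-/- no-Trp + BSO (SD 5396, n = 4) and 32673 CPM in *Cse*-/- no-Cys livers (SD 11299, n = 4), or 27066 CPM without av08 (SD 1688, n = 3). Of neighbours in that order, *Cse*+/- control and no-Cys, *Cse*+/- and *Cse*-/- no-Trp, and *Cse*-/- no-Trp with and without BSO overlapped and did not pass. *Cse*-/- no-Trp + BSO and no-Cys overlapped by av08 alone, and whether they passed depended on the settings given above. The *Cse*+/- no-Cys and no-Trp livers did not overlap, and that pair was not tested. *Alb* had the widest range of group means, 1.40 on the log2 scale, followed by *Serpina3k* (1.30) and *Ttr* (1.09), and *Rbp4* the narrowest at 0.29. Without av08 these were 1.62, 1.42, 1.22 and 0.37. The *Cse*-/- no-Cys group was the lowest of the 6 for 8 members, with and without av08, and the highest for *Ahsg* and, without av08, for *Rbp4*.

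Over the 20 livers, log2 CPM of *Gc* was the closest of the members to that of *Alb* (Pearson's r = 0.907), followed by *Ttr* (0.840), *Serpina3k* (0.779) and *Apoh* (0.727). *Ahsg* (r = -0.670) and *Rbp4* (r = -0.481) ran opposite to it. Of 2847 other genes with a mean of at least 50 CPM, those close to *Alb* included *Gm2a* (0.950), which encodes the GM2 ganglioside activator, *Cpq* (0.931), a secreted carboxypeptidase, *Hgfac* (0.901), the activator of hepatocyte growth factor, and *Pglyrp2* (0.900), a secreted amidase of peptidoglycan. These values describe the libraries, which share their group differences.

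The members differ widely in cysteine. *Apoh* has 23 cysteine codons among 345, *Alb* 36 among 608 and *Gc* 28 among 476, which is 6.67, 5.92 and 5.88 per 100 codons, against a median of 1.92 over 12605 tested genes. *Ahsg* (4.06) and *Fetub* (3.87) are also rich in cysteine, *Rbp4* has 2.45 and *Ttr* 1.36, and *Serpina3k* (0.96), *Serpina6* (0.76) and *Itih4* (0.32) have few. Whether the mRNA changes on the no-Cys diet went with cysteine content was not tested. Among the 5 members that fell were cysteine-rich *Alb*, *Apoh* and *Gc* and cysteine-poor *Ttr* and *Serpina3k*, and the member that rose, *Ahsg*, is in the upper 10% of genes by cysteine content (percentile 90.1). For tryptophan, *Rbp4* is the richest member with 3.67 per 100 codons (percentile 98.6), and *Gc* has none.

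**Figure D5:**
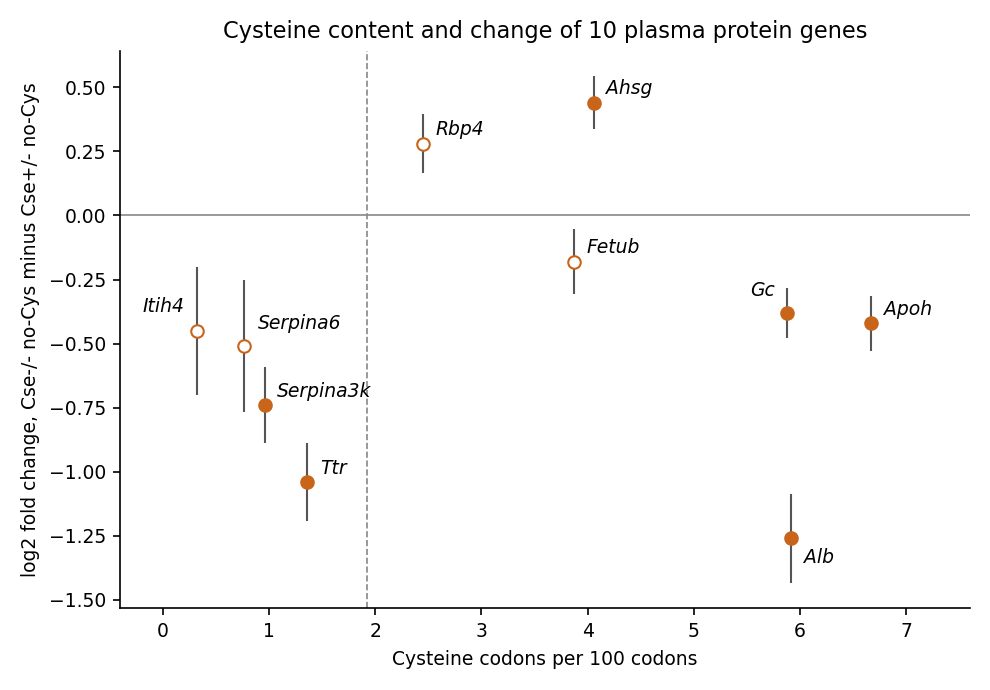
Cysteine codons per 100 codons (horizontal axis; dashed line, median of 12605 tested genes, 1.92) and log2 fold change between the genotypes (*Cse*-/- minus *Cse*+/-) without dietary cysteine (vertical axis, bars are SE) for the 10 genes; filled points passed an adjusted p of 0.05. *Alb* at 5.92 and *Ttr* at 1.36 codons per 100 have the largest falls.

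Other genes of the same kind and of the secretory pathway were read in the no-Cys comparison of the genotypes, beside 23.8% of all genes. Of 17 other plasma carriers and binding proteins tested, 2 were higher, *Serpina7* (log2 fold change 1.65, adjusted p = 0.0472), which carries thyroxine, and *Igfbp1* (1.26, adjusted p = 0.0143), which binds insulin-like growth factors, and 7 were lower, with a median of -0.46. *Orm1* (-1.16, adjusted p = 0.0328), an acute phase carrier, was the lowest, and it was at -1.91 (adjusted p = 1.09e-04) without av08. Of 22 other plasma protease inhibitors 10 were lower and none was higher, with a median of -0.30. They included *Serpina1e* (-2.83, adjusted p = 7.30e-04), *Serpina11* (-1.42, adjusted p = 0.00878) and *Serpina1c* (-0.70, adjusted p = 0.0120). On the no-Trp diet *Serpina1e* was lower in *Cse*-/- livers as well (-2.34, adjusted p = 0.0408). *Serpina1e* and *Serpina1c* are near-identical copies of the alpha-1-antitrypsin gene, between which reads may be split.

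Of 16 hepatocyte transcription factors 5 were lower and none was higher, with a median of -0.15: *Nfil3* (-1.05, adjusted p = 0.00327), *Cebpb* (-0.68, adjusted p = 0.0271) and *Foxa3* (-0.59, adjusted p = 0.0429) had the largest values. Of 21 genes of translocation into the endoplasmic reticulum and signal peptide removal 5 were higher and none was lower, with a median of 0.16, led by the signal recognition particle genes *Srp68* (0.61, adjusted p = 6.52e-04) and *Srp72* (0.50, adjusted p = 1.38e-04) and its receptor *Srpr* (0.41, adjusted p = 0.00460). Of 12 genes of disulfide formation 1 was higher, *Pdia4* (0.70, adjusted p = 0.0174), a disulfide isomerase, and 2 were lower, *Prdx4* (-0.91, adjusted p = 7.41e-07), a peroxiredoxin of the endoplasmic reticulum, and *Qsox1* (-0.70, adjusted p = 0.00405), a sulfhydryl oxidase. Without av08 the counts were 1 higher and 9 lower for the carriers, 1 and 11 for the inhibitors, 0 and 3 for the transcription factors, 4 and 0 for translocation and 0 and 2 for disulfide formation. Of the genes named, *Serpina7* (0.34, adjusted p = 0.599), *Cebpb* (-0.52, adjusted p = 0.0785), *Foxa3* (-0.53, adjusted p = 0.0935) and *Pdia4* (0.50, adjusted p = 0.0710) did not pass without av08.

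Markers of other cells were read beside these results. Of 12 hepatocyte markers 2 were higher and 1 was lower in the same comparison, with a median of -0.07. Without av08 1 was higher and 3 were lower, with a median of -0.01. All 5 red cell markers were lower, and their sum was 69.1 to 114 CPM in *Cse*-/- no-Cys and 201 to 406 CPM in *Cse*+/- no-Cys livers. The 114 CPM was that of av08. Of 5 cholangiocyte markers tested 2 were lower, *Spp1* and *Sox9*, with a sum of 16.4 to 28.8 CPM against 46.1 to 57.95 CPM. No red cell or cholangiocyte marker was at 0 in all livers. Of 8 stellate cell markers 2 were lower, of 9 immune markers 1 was lower, of 7 endothelial markers 1 was higher, and of 5 adipose markers none passed. Without av08 the 5 red cell and 2 cholangiocyte markers were again lower, with sums of at most 76.9 and 22.3 CPM, and 1 adipose marker, *Cidec* (0.87, adjusted p = 0.0417), was higher. Between the *Cse*-/- no-Cys and no-Trp groups 3 of 5 red cell markers were lower, *Hba-a2* (-1.20, adjusted p = 0.0428), *Hbb-bt* (-1.15, adjusted p = 0.0292) and *Alas2* (-0.68, adjusted p = 0.0305), as was 1 cholangiocyte marker, *Spp1* (-0.98, adjusted p = 0.00411), and of the hepatocyte markers 1 was higher and 2 were lower. Against no-Trp + BSO 2 cholangiocyte markers were lower, *Spp1* (-1.09, adjusted p = 0.00545) and *Krt7* (-1.07, adjusted p = 0.0457). Without av08 the red cell counts were 3 and 1 lower in these 2 comparisons and the cholangiocyte counts 1 and 2, while hepatocyte markers were 1 higher and 3 lower, and 1 higher and 2 lower. The interaction passed for *Alas2* (-1.12, adjusted p = 0.0242) and the endothelial marker *Lyve1* (1.30, adjusted p = 0.0110). The part of these cells in the results on the 10 genes was not tested.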

How the data were processed

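Poly(A) RNA of 20 livers was sequenced from both ends. Per the labels and the study's methods, HISAT2 2.1.0 placed reads on GRCm38 and HTSeq 0.11.0 counted them per gene, and the authors deposited these raw counts. Their annotation release was not given in the sources used here. Columns were assigned to groups by the study's list of mice, and 1 column was not used. Genes were named, and members located, with GENCODE annotation of GRCm38, which gave 45229 of 46078 genes a symbol. Libraries of a group were not repeats of one another: in 25 pairs the chi-square was 9.60 to 64.2 per gene.

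Genes were kept with filterByExpr (minimum count 10, minimum total 15), and 14759 remained. A quasi-likelihood model of edgeR 4.0.16 (limma 3.58.1, R 4.3.3) with TMM factors and a mean per group was fitted to all 20 livers. The 8 comparisons were tested two-sided with Benjamini-Hochberg adjustment and a threshold of 0.05. The SE was taken as |log2 fold change| over the root of F. CPM are counts divided by the TMM-scaled library size, and shares are counts divided by all gene counts. P values are for differences between group means, judged against the spread between these mice, with dispersion estimates shared over genes and groups. In simulated no-Cys groups 76.8% of 2-fold changes and 22.2% of changes by 0.5 on the log2 scale were recovered among 14474 genes, and 6.67% of 105 calls were false. Of each size 99 genes of any abundance were changed, while 3515 genes passed in the real comparison. The recovered shares therefore do not give the power for the 10 abundant genes.

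The 10 members, the gene lists and the comparisons were chosen with earlier results of these data known. All 10 members are named. Of each other list the called genes with the largest change are named, at most 3 a list, and for likeness to *Alb*, which also had the widest range of group means, the 5 closest genes, of which 1 is not reported here. Alternatives were DESeq2 (version 1.42.0 here; the study used DESeq2 in another version), other scalings, no filter, other samples in the fit, a stricter threshold, thinning to 11785740 counts and leaving out each mouse. Figures were drawn with matplotlib 3.10.9 in Python 3.11.15.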

Additional observations from a re-analysis of the deposited data

Results flagged for a closer look

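Among 33 sets of 4 livers (the 10 genes and their summed share in the 3 groups of 4), 2 held a liver far from the others by Dixon's criterion, which chance meets in about 1 of 20 sets. Both were mouse av08 of the *Cse*-/- no-Cys group. Its *Alb* level was 49495 CPM, against 25507 to 28858 CPM in the other 3 livers, and its *Itih4* level was 2609 CPM, against 1038 to 1146 CPM. The genotype difference between the no-Cys and no-Trp diets passed the edgeR test of the interaction for *Alb* (log2 interaction -0.997), *Ttr* (-0.813) and *Ahsg* (0.582). These calls were lost in 8, 11 and 11 of 14 fits without 1 mouse, and all 3 were lost in a fit of the 4 groups alone.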

How the results depend on the processing

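Between the genotypes on the no-Cys diet the 6 calls held in each of the 8 fits without 1 mouse, with 6 to 8 members called. *Gc* alone lost its call in a fit of only those 2 groups (-0.39, adjusted p = 0.0670). Scaling by total counts, without factors, moved the median log2 fold change of all genes by 0.163 and gave 3504 higher and 1026 lower genes in place of 1717 and 1798. On that scale *Rbp4* also passed (0.45, adjusted p = 0.00760) and no member's call changed direction.

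For *Cse*-/- no-Cys against no-Trp, DESeq2 called 5 members, and a fit of only these groups or an adjusted p under 0.01 called 0. Leaving out 1 mouse gave 0 to 6. For no-Cys against no-Trp + BSO a fit of only these groups and an adjusted p under 0.01 each called 1, and leaving out 1 mouse gave 0 to 5. For the interaction both settings called 0, and leaving out 1 mouse gave 0 to 4. DESeq2 called 1 member, *Serpina3k*, for *Cse*+/- no-Cys against control. The counts of 6 and 5 were those without av08, where 12.6% and 6.97% of all genes passed, against 10.4% and 2.75% with it. For the other counts of this paragraph the share of all genes is not given, so that they do not show a change of the members alone. No result that passed the threshold changed direction. Over all settings 1093 gene results kept their side of the threshold, of which 37 estimates that did not pass, none over 0.16 in size as reported, changed sign, 58 fell below it and 19 passed it. Of the counts of members called and the summed shares 123 stayed within 1.5 times or the spread between mice, 26 counts were smaller, 4 were larger and 4 shares moved by more than the spread between mice: without mitochondrial counts the *Cse*+/- control, *Cse*+/- no-Trp and *Cse*-/- no-Trp shares were 12.45%, 10.39% and 9.14%, and on protein-coding genes the *Cse*+/- control share was 12.01%. No paired analysis was possible because the columns of the table carry no replicate numbers.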
